A study of Rattus norvegicus with 10 samples.

Results

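MicroRNA (miRNA) levels in the resting rat heart were described from the 5 Control arrays of a series of 10 one-colour miRNA microarrays. The members were chosen by their labels, which name them as replicates 1 to 5 of the saline group, here called Control 1 to Control 5, and the other 5 arrays, from rats given dexmedetomidine (DEX), a sedative acting on alpha2 adrenergic receptors, were not analysed here. Every Control array came from the left ventricle of a male Wistar rat weighing between 250 and 350 g, with 1 array for each labelled replicate. Saline ran into the tail vein at the rate used for DEX, over 30 min of infusion and a short washout. RNA came from the anterior wall, as the methods state. The profile is therefore that of an infused animal and not of an untouched one. The labels name the RNeasy mini kit for the extraction while the methods name the miRNeasy kit, which is made to keep small RNA, and the effect of the kit on these levels was not tested.

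miRNAs are short RNAs cut from a hairpin, and each hairpin can give a product from its 5′ side (the 5p arm) and one from its 3′ side (the 3p arm). The bases near the 5′ end, called the seed, pair with messenger RNAs and lead to their repression, so miRNAs with the same seed share many targets. In heart muscle the families of miR-1 and miR-133 are known as the main muscle miRNAs, and miR-208a, miR-208b and miR-499 lie inside genes for myosin heavy chains.

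The chip has 761 probes for rat miRNAs, with a single spot for each. The value used is the deposited score, a linear signal with the blank spots' mean removed and each array scaled, and detection on an array means that the deposited table gives the miRNA a score there. Scores of 1 probe can be set side by side between arrays, though the outcome changed with background and scaling, as described below. Probes differ in how strongly they bind. Ranks, shares of signal and ratios between arms are therefore those of probe signal and not of molecules. Lower levels of a cell type's miRNA can come from fewer such cells or from less of it in each cell, and whole tissue cannot tell these apart. The array names put Control 1 to Control 4 on slide 1 and Control 5 alone on slide 2.

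The muscle miRNAs and the other miRNAs with the highest scores are shown first by sequence, because their shared seeds account for much of the signal described below. Mature sequences were taken by name from RefSeq (GRCr8), which gave one for 684 of the 761 miRNAs and for 18 of the 20 with the highest scores. Each is written 5′ to 3′, with the seed (bases 2 to 8) in capitals.
rno-miR-1b: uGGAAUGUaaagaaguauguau
rno-miR-1-3p: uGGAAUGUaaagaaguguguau
rno-miR-133b-3p: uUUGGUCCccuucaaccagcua
rno-miR-133a-3p: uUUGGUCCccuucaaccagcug
rno-miR-208a-3p: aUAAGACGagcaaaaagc
rno-miR-208b-3p: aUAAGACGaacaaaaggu
rno-miR-499-5p: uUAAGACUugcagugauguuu
rno-miR-375-5p: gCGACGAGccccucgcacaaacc
rno-miR-126a-3p: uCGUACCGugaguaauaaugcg
rno-miR-30c-5p: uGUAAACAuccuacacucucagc
rno-miR-26a-5p: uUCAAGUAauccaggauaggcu
rno-miR-23a-3p: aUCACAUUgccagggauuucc
rno-let-7a-5p: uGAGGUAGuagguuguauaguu
Among these sequences, rno-miR-1b and rno-miR-1-3p differ by 1 base (A17G, counted from the 5′ end, the base of rno-miR-1b first), and so do rno-miR-133b-3p and rno-miR-133a-3p (A22G, the base of rno-miR-133b-3p first). How much of one copy each probe also binds was not tested, and the signal of each pair is also given as a sum by seed.

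The muscle miRNAs lie at a few places of the genome (GRCr8). The mature rno-miR-1b is at chr3:187864736-187864757 on the + strand. On chromosome 18, rno-miR-1-3p (chr18:2160339-2160360) and rno-miR-133a-3p (chr18:2157886-2157907) lie close together on the - strand within the span of Mib1, a ubiquitin ligase gene, and on chromosome 9 rno-miR-133b-3p (chr9:30594629-30594650) follows rno-miR-206-3p (chr9:30590747-30590768) on the + strand. The miRNAs of the myosin genes were placed as their names imply, with rno-miR-208a-3p at chr15:32395568-32395585 (- strand) in the span of Myh6, rno-miR-208b-3p at chr15:32421648-32421665 (- strand) in that of Myh7, and rno-miR-499-5p at chr3:164570616-164570636 (+ strand) in that of Myh7b. Whether a mature miRNA falls in an exon or an intron was not given by the gene table used, which lists gene spans only.

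Detection divided the 761 miRNAs into a large set seen everywhere and a smaller set never seen. A score was present on all 5 arrays for 429 miRNAs (56.4%) and on no array for 162 (21.3%). The remaining 170 had a score on some arrays, with 43 on 4, 34 on 3, 35 on 2 and 58 on 1. The number detected was 522 on Control 1, 517 on Control 2, 492 on Control 3, 483 on Control 4 and 533 on Control 5, or 509.4 ± 21.1 (SD, n = 5). Control 5, on its own slide, thus had the most and Control 4 the fewest, and 20 miRNAs were detected on Control 5 alone against 3 on Control 4 alone. Control 3 was the array that most often lacked a miRNA found on the other 4, with 22 such miRNAs against 4 to 7 on the others.

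Signal was concentrated in few miRNAs. The single highest, rno-miR-1b, held 12.8 ± 0.69% of an array's summed score (SD, n = 5), the 5 highest held 36.6 ± 1.21%, the 20 highest 61.7 ± 1.02% and the 100 highest 93.0 ± 0.33%. Between 11 and 13 miRNAs were needed for 50% of the summed score, depending on the array, and between 70 and 76 for 90%. The 31 miRNAs with a median score of 1000 or more held 74.0 ± 0.88%, and the 62 between 100 and 1000 held 18.4 ± 0.597%. The 231 miRNAs between 10 and 100 held 6.62% and the 105 under 10 held 0.647%. The median score over the 429 miRNAs was 23.

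**Figure D1:**
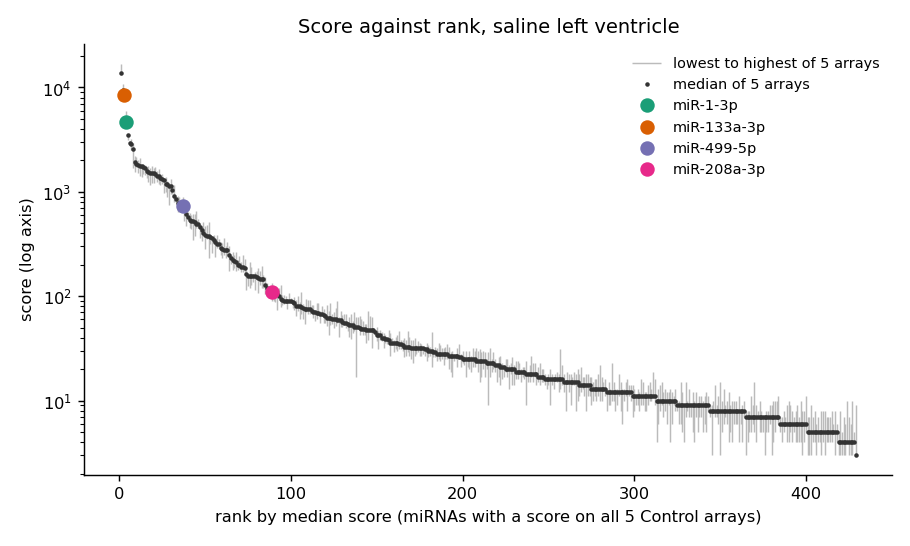
Median score (log axis) of the 429 miRNAs with a score on all 5 Control arrays against rank, with grey lines from the lowest to the highest array. Of the 4 named heart markers, rno-miR-133a-3p and rno-miR-1-3p sit at ranks 3 and 4, rno-miR-499-5p at rank 37 and rno-miR-208a-3p at rank 89.

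The 4 highest probes on every array were the miR-1 and miR-133 probes. The score of rno-miR-1b was 13522, 13922, 13103, 13867 and 16952 on Control 1 to Control 5. That of rno-miR-133b-3p was 9118, 9563, 9248, 9718 and 10738. For rno-miR-133a-3p the arrays gave 8435, 8609, 8211, 8007 and 9150. Control 5 had the highest score of the 5 arrays for each of these. It also had the largest scaling factor, 0.412 against 0.309 to 0.394 on the others. On every single array the order was the same, but over arrays the ranges of rno-miR-133b-3p and rno-miR-133a-3p overlapped. Next came rno-miR-1-3p with 4875, 4613, 4162, 4715 and 5977, again highest on Control 5. The 4 probes together took 33.5% of the summed score.

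The myosin-gene miRNAs stood far lower and in a fixed order. rno-miR-499-5p, carried by Myh7b, scored 724, 661, 728, 813 and 885 on Control 1 to Control 5. rno-miR-208a-3p, carried by the gene for the adult fast myosin of rodent ventricle, scored 102, 91, 110, 134 and 124. The third, rno-miR-208b-3p, whose host Myh7 encodes the slow myosin that is low in the adult rat ventricle, scored 15, 6, 3, 8 and 13. The ranges of the 3 did not overlap, and rno-miR-208a-3p and rno-miR-208b-3p carry the same seed. A last member of the muscle list, rno-miR-206-3p, best known from skeletal muscle, scored 225, 178, 220, 264 and 222. Its sequence differs from that of rno-miR-1-3p at 3 of 22 bases, and the share of its signal that came from the brighter miR-1 miRNAs was not tested. All 8 members of this heart and skeletal muscle list were on all 5 arrays, as were 56.4% of all 761 probes. The list held 34.5 ± 1.31% of the summed score (SD, n = 5), of which the 4 miR-1 and miR-133 probes held 33.5%. The median of rno-miR-208b-3p, 8, was below the median of 23 over all miRNAs on all arrays.

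Below the muscle miRNAs the order was fixed only for the fifth place. On every array this was rno-miR-375-5p, with 3572, 3307, 3120, 3514 and 3573, a product of a hairpin within the span of Cryba2 whose other arm is the one known from pancreatic islets. Sixth by median was rno-miR-126a-3p, an endothelial miRNA within Egfl7, with 3102, 2910, 2754, 2912 and 3073. It was higher than rno-miR-30c-5p (2861, 2875, 2496, 2801 and 3183) on 4 of 5 arrays. In the next place rno-miR-26a-5p, within the phosphatase gene Ctdspl, ran from 1688 on Control 4 to 2932 on Control 1, and its rank ran from 7 to 14. From the ninth place down neighbours could seldom be ordered: rno-miR-23a-3p (median 1933) was higher than rno-miR-483-5p (median 1843) on 2 arrays only, and rno-miR-483-5p, from the span of the growth factor gene Igf2, was higher than rno-miR-30a-5p (median 1805) on 3. An exception was rno-miR-23b-3p, which was above rno-let-7a-5p on 5 of 5 arrays. The places from 12 to 20 were taken by rno-miR-23b-3p, rno-let-7a-5p, rno-miR-347, rno-miR-30b-5p, rno-miR-30e-5p, rno-let-7f-5p, rno-miR-125a-3p, rno-miR-24-3p and rno-let-7d-5p, with medians from 1789 down to 1507.

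**Figure D2:**
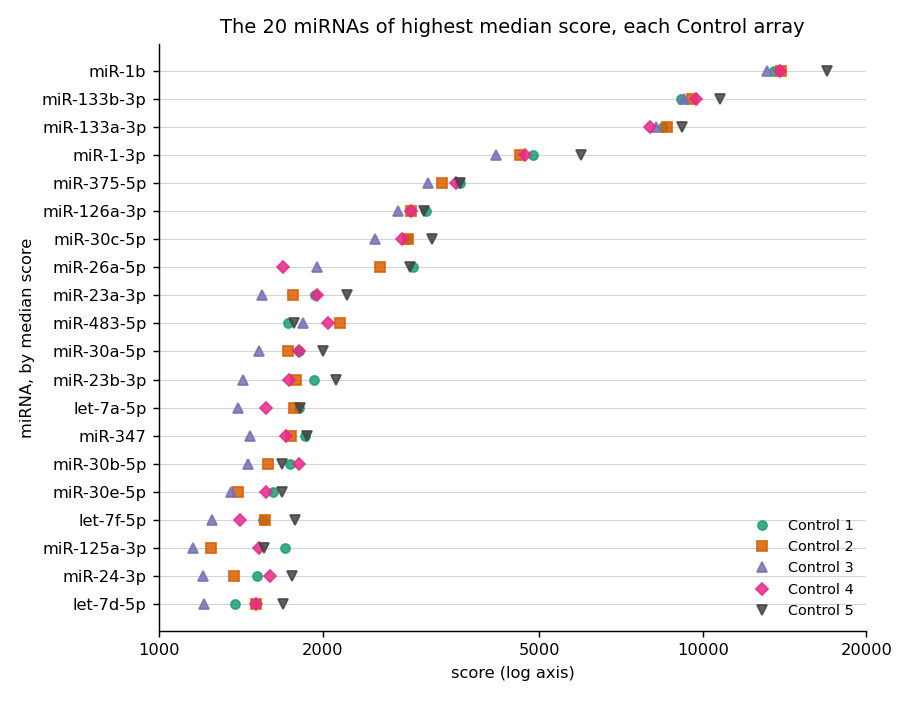
Score (log axis) of the 20 miRNAs with the highest median on each of the 5 Control arrays, 1 symbol per array. The 5 uppermost miRNAs keep their order on every array, whereas the values of neighbours overlap from the sixth place down, and rno-miR-26a-5p has the widest range in proportion, from 1688 to 2932.

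Signal was also summed by seed, and such sums can only keep or raise the share held by the 5 highest. The 684 miRNAs with a sequence carried 580 different seeds, and the 5 brightest seeds held 50.3% of the summed score, out of the 92.2% that fell on miRNAs with a sequence. The miR-1 and miR-206 seed (GGAAUGU in the sequences above) held 17.4 ± 0.908% and the miR-133 seed (UUGGUCC) 16.3 ± 0.700%. The let-7 seed (GAGGUAG), shared by 9 probes from rno-let-7a-5p to rno-miR-98-5p that were all detected on all arrays, held 7.81 ± 0.386%. The let-7 family is known for holding back growth genes in differentiated tissue. Next came the miR-30 seed (GUAAACA), found here in rno-miR-30c-5p, rno-miR-30a-5p and rno-miR-30e-5p, with 5.51 ± 0.0966%. Counted by name, with rno-miR-30b-5p and rno-miR-30d-5p, the 5 miR-30 probes held 8.27 ± 0.191% (8.07% to 8.48% over arrays), which overlapped with the let-7 range of 7.28% to 8.19%. The fifth seed was that of rno-miR-23a-3p and rno-miR-23b-3p with 3.29 ± 0.214%. Also carrying the miR-30 seed was rno-miR-384-5p, which was not detected on any array. Within the let-7 family the scores ran from 1769 for rno-let-7a-5p to 81 for rno-miR-98-5p, and most members differ from rno-let-7a-5p by 1 or 2 bases, so their separate scores are uncertain.

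Lists of miRNAs known from particular cell types and tissues were then read off, each beside the 56.4% of all 761 probes that were detected on all arrays, the 21.3% detected on none, and the median of 23. The endothelial, smooth muscle and fibroblast lists, named for cells that a ventricle is known to hold, had every member on all arrays. Whether their signal came from those cells was not tested. Of the endothelial list 4 of 4 were on all arrays with a median of 193.5, and the list held 3.02 ± 0.118% of the summed score. It was led by the arms of 1 hairpin, rno-miR-126a-3p (2912, with 2.65% of the summed score) and rno-miR-126a-5p (317). The other members were lower, rno-miR-221-3p at 70 and rno-miR-222-3p at 5. The smooth muscle list had rno-miR-143-3p (median 1189) and rno-miR-145-5p (729), which come from 1 transcript, and held 1.76 ± 0.0710%. The fibroblast and matrix list had 7 of 7 on all arrays and a median of 522, and its 3 highest members were rno-miR-29a-3p (1361), rno-miR-29b-3p (1342) and rno-miR-29c-3p (777), miRNAs known to repress collagens. They were followed by rno-miR-21-5p (522), rno-miR-199a-3p (248), rno-miR-199a-5p (148) and rno-miR-214-3p (64). The 20 broadly expressed miRNAs were all on all arrays, had a median of 1501, and held 25.3 ± 1.07%.

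Blood cell miRNAs were present at lower levels. Of the leukocyte list 6 of 6 were on all arrays with a median of 50, led by the lymphocyte miRNA rno-miR-150-5p (343, 360, 348, 316 and 383), and it held 0.601 ± 0.0315%. The myeloid miRNA rno-miR-223-3p scored 53, 51, 39, 67 and 54, and rno-miR-155-5p, which rises in activated immune cells, scored 3 to 7. The ranges of these 3 did not overlap. The red cell list, with 3 of 3 on all arrays and a median of 91, was the one whose share differed most in proportion between arrays among the lists with every member on all arrays, from 0.286% on Control 5 to 0.669% on Control 3.

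Lists of other organs stood at low scores where they were detected. The liver miRNA rno-miR-122-5p was not detected on any array, and the other 2 of the 3 liver members were on all arrays and scored 10 to 25. For the brain list, rno-miR-124-3p and rno-miR-9a-3p (2 of 8) were on no array, 4 of 8 members were on all arrays with a median of 10.5, and the highest was rno-miR-128-3p at 15. The epithelial list had 3 of 7 on all arrays, none absent from every array, and no member's median above 7 (rno-miR-200b-3p and rno-miR-203a-3p). None of the 3 pancreas members was on all arrays and rno-miR-217-5p was on none. The sensory list was alike, with 0 of 3 on all arrays, rno-miR-183-5p on none, and a highest median of 4. Germ line and ciliated cell miRNAs showed 1 of 4 on all arrays, rno-miR-34c-5p at 8. The liver, brain, epithelial, pancreas, sensory and germ line lists each held at most 0.0471% of the summed score on any array. These lists mostly name 1 arm of a hairpin, and some arms left out of them scored higher. On all arrays were rno-miR-122-3p (median 10), rno-miR-183-3p (15), rno-miR-194-3p (47), rno-miR-138-2-3p (79) and rno-miR-375-5p (3514). By contrast, the unlisted arms of miR-124 and miR-217 were on none. The low scores therefore hold for the listed arms and not for every product of these hairpins.

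A pair of lists mixed absent and clear signal. The embryonic list, from a cluster known in stem cells and placenta, had 5 of 8 members on all arrays with a median of 14, and rno-miR-295-5p reached 67, 70, 67, 80 and 67, whereas rno-miR-291a-3p and rno-miR-293-5p were on none. In the imprinted Dlk1-Dio3 list 3 of 9 were on all arrays with a median of 11, with rno-miR-370-3p at 89, 77, 89, 93 and 77 and with rno-miR-379-5p and rno-miR-495 on none. In each list the highest member was seen on all arrays while other members were missing.

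**Figure D3:**
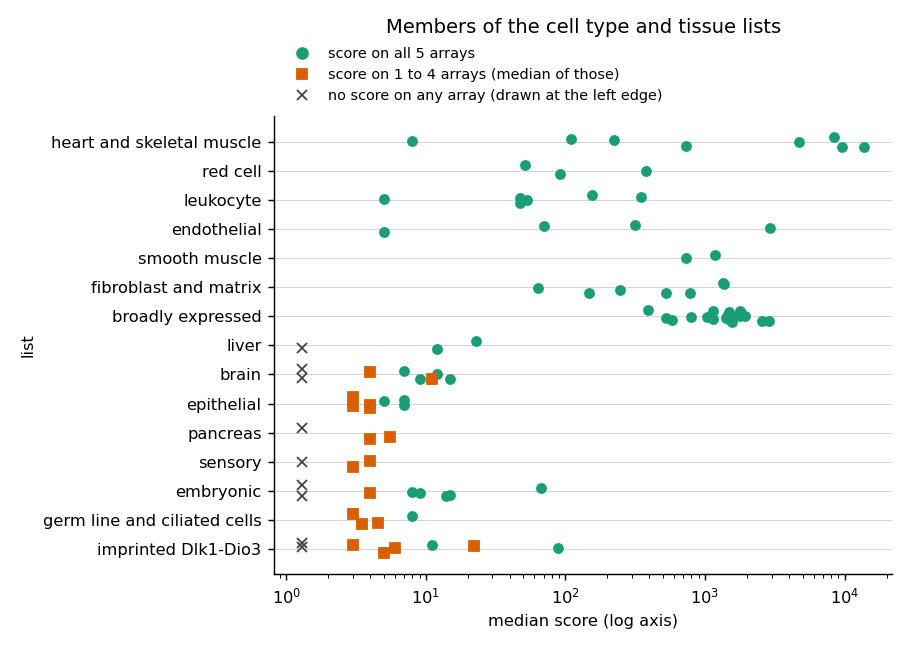
Median score (log axis) of each member of 15 lists over the Control arrays on which it had a score. Green circles mark miRNAs on all 5 arrays, orange squares those on 1 to 4, and crosses at the left edge those on none; muscle, endothelial, smooth muscle, fibroblast and broadly expressed miRNAs reach scores above 1000, while liver, brain, epithelial, pancreas, sensory and germ line members stay at 23 or less.

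The clusters of the genome gave the same contrast on a larger scale. miRNAs were called clustered when their hairpins lay on 1 strand within 10000 bases of each other. The Mir23a, Mir27a and Mir24-2 cluster at chr19:40859455-40859843 had a score between 1178 and 1933 for the brighter arm of each hairpin, and the related Mir23b, Mir27b and Mir24-1 cluster at chr17:1818669-1819482 between 790 and 1789. Since rno-miR-24-3p is the product of both clusters, its 1511 cannot be divided between them. In the Mirlet7a1, Mirlet7f-1 and Mirlet7d cluster at chr17:16320133-16322357 the hairpins ran from 1507 to 1769. The probes rno-let-7a-2-3p and rno-let-7f-2-3p name further hairpins of let-7a and let-7f. The scores of rno-let-7a-5p and rno-let-7f-5p therefore cannot be given to this cluster alone.

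In the Dlk1-Dio3 region on chromosome 6 (chr6:134298084-134579838), 98 probes were placed, of which 40 (40.8%) were on all arrays and 31 (31.6%) on none, against 56.5% and 21.3% of all 685 probes with a position. The median of those on all arrays was 12.5. The highest were rno-miR-487b-3p (379, 425, 370, 485 and 350), rno-miR-1188-3p (370, 320, 325, 371 and 369) and rno-miR-494-3p (189, 171, 195, 249 and 187), and the region held 1.52 ± 0.125% of the summed score. A stretch of the X chromosome from Mir743b to Mir465 (chrX:150444578-150488242), with neighbouring clusters known for expression in testis, had 16 of 24 probes (66.7%) on no array and 4 on all. Its highest member was rno-miR-465-5p at 26, 19, 27, 25 and 22.

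A miRNA's place within the span of a protein-coding gene went with detection. Of 335 miRNAs with a position in such a span, on either strand, 221 (66.0%) were on all arrays and 46 (13.7%) on none. Outside any span this was 166 of 350 (47.4%) and 100 (28.6%). The median score of those on all arrays was 25 inside and 19.5 outside, and both sets held similar shares of the summed score, 49.0 ± 0.616% and 43.3 ± 0.726%.

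The arms of a hairpin could be set side by side in 281 hairpins with a probe for each. Both arms were on all 5 arrays in 100 hairpins, only the 5p arm was on all with the 3p arm on none in 29, the reverse held in 20, neither arm was on any array in 22, and 110 were mixed. Among the 100, the 5p arm was brighter in 45, the 3p arm in 53, and 2 were equal, by the median over arrays of the ratio between arms. The median ratio of the brighter over the dimmer arm was 3.64-fold, with 33 hairpins within 2-fold, 34 over 10-fold and 5 over 100-fold. All 5 arrays had the same arm higher in 80 of the 100, and of the 20 in which they did not, 19 had arms within 2-fold. In 1 hairpin over 2-fold apart, miR-511, the arrays did not share the order either.

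Hairpins with a far brighter 5p arm included miR-26a, let-7i, miR-483, let-7b and miR-145. For miR-26a the 5p arm had a median of 2553 and the 3p arm, with the sequence cCUAUUCUugguuacuugcac, scored 10, 6, 7, 6 and 4, which gives a 293-fold ratio by the median over arrays. The ratios of the other 4 lay between 78.9-fold and 97.5-fold. Those with a far brighter 3p arm were miR-29b (172-fold), miR-23a (122-fold), miR-29a (117-fold), miR-204 (108-fold) and miR-3573 (49.4-fold). In miR-29b, the arm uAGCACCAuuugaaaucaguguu had a median of 1342 and the arm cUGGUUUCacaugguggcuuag one of 7. The hairpin of miR-204 lies within the span of the ion channel gene Trpm3. Its 3p arm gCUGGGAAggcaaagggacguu scored 861, 866, 808, 889 and 809, while the 5p arm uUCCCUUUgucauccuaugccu, the one most often studied, scored 8, 7, 9, 11 and 6. The size of the ratios changed with the background removed. The median size of the log2 ratio between arms was 1.86 with the deposited scores and 0.58 with no background removed, over 100 hairpins each. It was 1.19 with the scanner's own background column subtracted, over the 92 hairpins that then had both arms on all arrays.

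Still larger ratios fell outside those 100 hairpins, because the dim arm was missing on some arrays. rno-miR-133b-3p had a median of 9563 while rno-miR-133b-5p scored 3, 4 and 4 on Control 1, Control 3 and Control 5 only, a 2684-fold ratio by the median over those arrays. Of miR-1 the 5p arm was scored on Control 1 only (4), where the 3p arm had 4875. By contrast rno-miR-133a-5p was on all arrays, with 207, 178, 201, 197 and 222. For miR-375 the 5p arm had a median of 3514 and the 3p arm, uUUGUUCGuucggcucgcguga, was scored on Control 1 (5) and Control 5 (6) only, a 652-fold ratio on those arrays. Likewise rno-miR-16-5p had a median of 1033 against 3 for rno-miR-16-3p on 2 arrays. The dim arm of miR-375 is the pancreatic islet miRNA named above, and the bright arm's 23 bases are 69.6% G and C.

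Other hairpins gave only 1 arm. The 5p arm alone was on all arrays, with the 3p arm on none, for rno-let-7e (median 526), rno-miR-21 (522), rno-miR-100 (430), rno-miR-497 (165), rno-miR-146a (154) and rno-miR-10a (105). The 3p arm alone was seen for rno-miR-27a (1178), rno-miR-206 (222), rno-miR-223 (53), rno-miR-144 (51) and rno-miR-208b (8). An arm that was not detected had no score, so no ratio is given for these.

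Of the hairpins with both medians at 100 or more, the 5 with the closest arms were 1.68-fold to 10.5-fold apart. In miR-199a, known from fibroblasts and smooth muscle, the 5p arm had a median of 148 and the 3p arm 248, a ratio of 1.68-fold in favour of the 3p arm on 5 of 5 arrays. The arms of miR-149 stood at 155 and 282, those of miR-125a at 359 and 1526, and those of miR-126a at 317 and 2912. In miR-30e the 5p arm was ahead, at 1570 against 147. Each of these 5 had its order on all 5 arrays, whereas the arms of miR-142 (both 47) and miR-210 (51 and 55) changed places between arrays. The ratio that varied least between arrays was that of miR-22, with a 5p arm at 119, a 3p arm at 1495 and an SD of 0.04 on the log2 scale, against a median SD of 0.30 over the 100 hairpins.

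**Figure D4:**
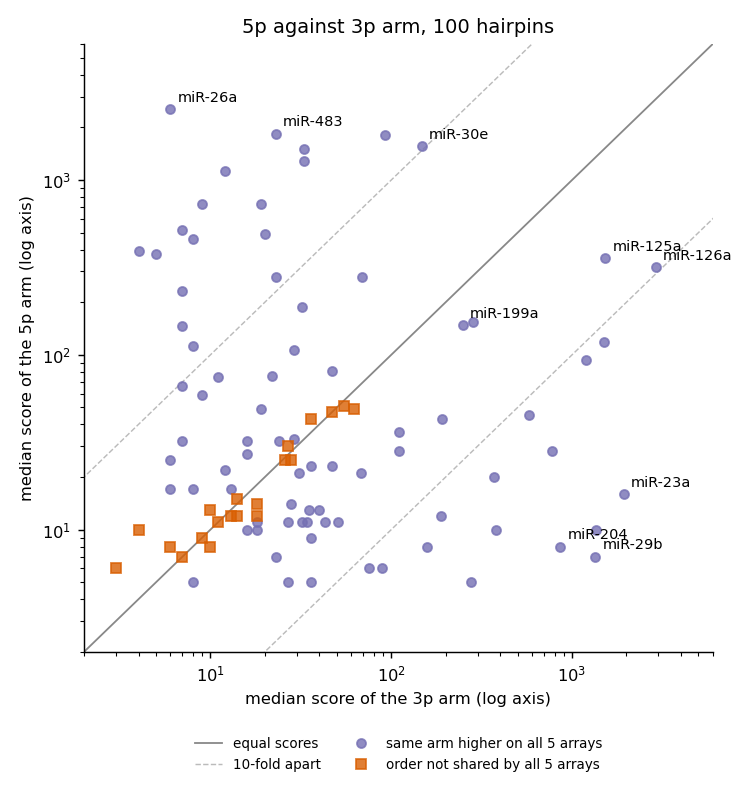
Median score of the 5p arm against that of the 3p arm (both log axes) for the 100 hairpins with both arms on all 5 Control arrays. Purple circles mark the 80 hairpins with the same arm higher on all arrays and orange squares the 20 without a shared order. Of these 20, 19 have arms within 2-fold and miR-511 does not. miR-26a lies furthest above the line of equal scores and miR-29b furthest below.

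The sequences of the brighter and dimmer arms differed in base content where the arms were far apart. Of 31 hairpins over 10-fold apart with both sequences, the brighter arm had the higher share of purines (A and G) in 24 and the lower in 7, with medians of 54.5% and 36.4%. Of 56 hairpins under 10-fold apart this was 29 against 25, with 2 equal. The share of G alone was higher in the brighter arm in 15 of the 31 hairpins and in the dimmer arm in 16. A first base of U was found in 14 of the 31 brighter arms and 6 of the 31 dimmer ones. In the 56 hairpins under 10-fold apart it was found in 16 brighter and 17 dimmer arms. These counts describe probe signal and were not tested.

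Base content also went with detection itself. Of the 59 miRNAs with under 35% G and C, 20 (33.9%) were on all arrays and 27 (45.8%) on none. The share on all arrays was 40.2% for those from 35 to 45%, 57.9% from 45 to 55%, 74.1% from 55 to 65%, and 91.1% (51 of 56) from 65% up, where 1 miRNA was on no array. Among those on all arrays, G and C content and score were close to unrelated (Pearson's r = -0.10, Spearman's rho = -0.04, across 387 miRNAs, which share the arrays and are not independent). miRNAs with U as first base were 247 of the 684 and held 66.1 ± 0.800% of the summed score, while the share of them on all arrays, 57.1%, was close to that of every miRNA. The 4 miR-1 and miR-133 probes all start with U and are a large part of that share. How far G and C content acts through probe binding was not tested.

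The miRNAs never detected had spots at the level of the blanks. Over these 162 miRNAs, 61.4% of spots were below the blank mean of their array and 12.1% reached the middle between the blank mean and the detection limit. Both arms were undetected on all arrays in hairpins such as miR-124, known from neurons, miR-217 of the pancreas, miR-202 of the gonads, and miR-196a of the Hox clusters. Absence of a score means a signal under the limit of this array, not absence of the miRNA. The 170 miRNAs with a score on some arrays were almost as dim, with a median of 4 and with 168 of them under 10.

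A pair of miRNAs broke that rule. rno-miR-541-5p, of the Dlk1-Dio3 region, scored 41 on Control 5 and 3 on Control 3 and was not detected on the other 3 arrays. rno-miR-137-3p, known from brain, scored 11 on Control 5 and was on no other array. The next highest were rno-miR-92b-3p (median 9 on 4 arrays, with a bad-spot mark on Control 1), rno-miR-3580-5p (8 on Control 3 alone) and rno-let-7c-1-3p (7.5 on 4 arrays). Control 5 was thus the high array for both, and it was the only array on slide 2, so slide and animal cannot be told apart.

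Some miRNAs named in later releases, by their number, reached high scores. Of 111 probes with a number above 3000, 56 (50.5%) were on all arrays, and 8 had a median of 100 or more. Of all 761 probes, 56.4% were on all arrays and 93 had such a median. The highest was rno-miR-6215 (uUUAGGGUugcagagccagg), with 922, 1159, 950, 819 and 800 and rank 32. It was followed by rno-miR-3072 at 619 and rno-miR-3584-5p at 517. The 124 probes with a number from 1 to 100 had 62.9% on all arrays, and 27 probes with a number above 1000 and up to 3000 had 81.5%. Numbers from 1 to 100 held 50.8% of the summed score against 3.97% for those above 3000.

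The 5 arrays were close to each other. Across the 429 miRNAs on all arrays, log2 scores of pairs of arrays had a Pearson's r between 0.979 and 0.989, where most of the range is that between miRNAs and not between animals. The coefficient of variation (CV, the SD over the mean of the 5 arrays) had a median of 14.9%. With the deposited scores it fell with signal, from 25.8% in the dimmest 108 miRNAs to 16.8%, 13.1% and 11.4% in the next 3 sets of 107 by rising score. Of the 429, 353 kept their highest array within 2-fold of the lowest. Scores in the dimmest set are small whole numbers, with medians from 3 to 10, so rounding alone moves them. The fall was not seen with other backgrounds: the median CV was 5.02% over all and 10.4% in the brightest 25% with no background removed, and 24.3% and 31.0% with the scanner's background column subtracted.

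**Figure D5:**
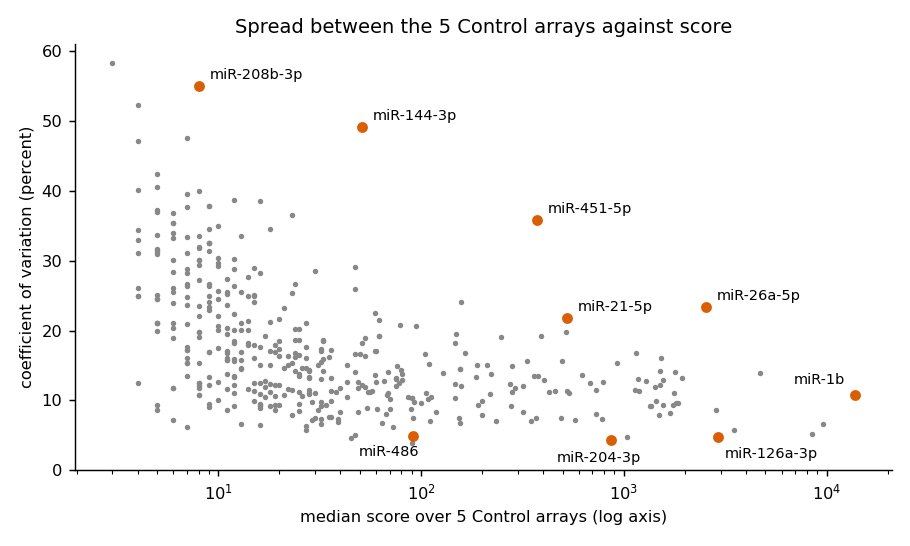
Coefficient of variation over the 5 Control arrays (percent) against median score (log axis) for 429 miRNAs, with those discussed in the text in orange. With these deposited scores the spread falls as the score rises, and rno-miR-144-3p (49.1%) and rno-miR-451-5p (35.8%) stand above miRNAs of like score, while rno-miR-486 (4.93%) does not.

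Among the 93 miRNAs with a median of 100 or more, the CV ran from 4.29% to 35.8%, with 33 under 10% and 1 over 30%. The most variable was the red cell miRNA rno-miR-451-5p (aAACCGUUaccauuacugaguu), with 245, 494, 519, 375 and 234 on Control 1 to Control 5. rno-miR-144-3p (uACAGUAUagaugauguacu), from the neighbouring hairpin of the same red cell transcript (chr10:63459446-63459465 against chr10:63459585-63459606 for rno-miR-451-5p, both on the + strand), scored 23, 51, 63, 56 and 17. Both were low on Control 1 and Control 5 and highest on Control 3. The last red cell miRNA, rno-miR-486, scored 91, 92, 89, 89 and 100 and did not follow them. miR-486 is also known from muscle. How much blood each piece of tissue held was not measured.

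Next in spread among the bright miRNAs were rno-miR-211-3p (124, 120, 157, 213 and 159, CV 24.1%), rno-miR-26a-5p (2932, 2553, 1952, 1688 and 2897, CV 23.4%), rno-miR-21-5p (609, 471, 346, 618 and 522, CV 21.8%) and rno-miR-3584-5p (375, 517, 526, 618 and 413, CV 19.8%). They did not move together: Control 4 was the highest for rno-miR-211-3p, rno-miR-21-5p and rno-miR-3584-5p and the lowest for rno-miR-26a-5p. rno-miR-21-5p, known to rise in the stressed heart and in its fibroblasts, was lowest on Control 3. The steadiest were rno-miR-204-3p (CV 4.29%), rno-miR-16-5p (4.77%), rno-miR-126a-3p (4.78%), rno-miR-133a-3p (5.15%) and rno-miR-375-5p (5.82%).

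A pair of arrays stood at the edges. Of the 93 bright miRNAs, Control 3 was alone lowest in 65 and Control 5 alone highest in 51. These counts changed with the processing. With quantile scaling of the blank-subtracted scanner signal the counts were 17 and 15, and with no scaling 36 and 1. With the scanner's background column subtracted they were 27 and 54. Shares of summed score, which need no scaling, ran from 32.9% on Control 1 to 35.9% on Control 5 for the muscle list.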

How the data were processed

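RNA of the left ventricle was labelled with Cy5 and hybridized to Toray 3D-Gene rat miRNA chips. The deposited scores in the series table are the authors' processed values, scaled per array to a median of 25 according to their methods. The median of the scores present was 16, 15, 17.5, 18 and 15 on Control 1 to Control 5, and the reason for this difference was not tested. Set against the deposited scanner intensities (635 nm, 3 gains), a score was the spot minus the mean of blank spots (5% trimmed at each end) times 1 factor per array, rounded, with between 98.4% and 99.6% of scores per array within 0.51. A score was present above the blank mean plus 2 SD, apart from 1 of 3805 calls. The 5 DEX value columns were not used. Versions of the scanner software and the miRBase release are not given in the sources used here.

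From the scores, the median, mean, SD, CV and share of the array's sum were computed with Python 3.11.15, pandas 2.3.3 and numpy 2.4.6, counting undetected miRNAs as 0 in shares, and figures were drawn with matplotlib 3.10.9. Conditions were not compared, and the sole test was Dixon's ratio for single arrays. Samples were grouped by their labels, and the number of arrays limits the precision. The code was tested on simulated data. Named were the 4 heart markers, the 20 highest medians, the highest and undetected members of each list, the 5 most and 5 least variable miRNAs with a median of 100 or more, and the 5 hairpins at each end of the arm ratio and nearest to equal, the 5 brightest miRNAs missing from some array, and the 5 brightest seeds. Others were named after their values were seen. Members and lists were chosen with earlier results of these data known. Alternatives covered the detection limit, the background, the scaling, and leaving out each array.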

Additional observations from a re-analysis of the deposited data

Results flagged for a closer look

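The highest or lowest array was set against the other 4 in 70 groups of values by Dixon's ratio (critical value 0.71), and 2 stood apart where 3.5 would be flagged at 1 in 20. The score of rno-miR-1b on Control 5, 16952, lay above the other arrays, which ran from 13103 to 13922, with a gap of 0.787 of the whole range. The germ line and ciliated cell list held 0.00499% of the summed score on Control 3, against 0.0142% to 0.0147% on the others, a gap of 0.953, and these shares rest on 4 miRNAs with scores under 10.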

How the results depend on the processing

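Of 109 values recomputed under 14 alternatives, 92 stayed within their limit (1.5 times for counts, CVs and log2 ratios, 1 SD over arrays for shares). Leaving out each array in turn, and a detection limit of 3 SD, moved none past it. With no background removed, the 5 highest miRNAs held 29.4% of the signal, the 20 highest 50.0436% and the miR-1 and miR-133 probes 26.9%, the median log2 ratio between arms was 0.58 and the median CV 5.02% (10.4% in the brightest 25% of miRNAs). With the scanner's background column subtracted, which left out 41 detected spots at or below 0, these were 29.9%, 51.4%, 28.8%, 1.19 and 24.3%, the median CV of the brightest 25% of miRNAs was 31.0% and Control 3 was alone lowest in 27 of the 93 bright miRNAs. With the blank mean removed, no rounding and each array scaled anew to a median of 25 over its detected miRNAs, Control 5 was alone highest in 78. The settings with no background removed and with the background column subtracted were scaled anew in the same way. Rounding and scaling thus changed together there. With no scaling the counts for Control 3 lowest and Control 5 highest were 36 and 1, and with quantile scaling 17 and 15. The cause of these shifts was not tested. No paired analysis was possible because 1 group was described and no groups were compared. With 1 spot per probe and 5 arrays, signals near the blank spots could not be resolved.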
